A study of Mus musculus with 2 samples.

Results

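Tmem119, 4933406I18Rik, Tmem37 and Cd81 are 4 of the 32285 mouse genes counted in 2 single-cell RNA sequencing libraries of syngeneic ovarian tumours. They were chosen because their summed counts in macrophages were lower in the library of mice given an Activin A neutralizing antibody than in the library of mice given control IgG. That difference is therefore a description and no finding, and what follows is where the genes were expressed, which macrophages carried the difference, and how the genes behaved in other cells. Tmem119 encodes a transmembrane protein best known as a marker of microglia in the brain, and it is also made by bone-forming cells. Cd81 encodes a tetraspanin, a membrane protein that gathers partner proteins into microdomains. Tmem37 encodes a small membrane protein annotated as related to the gamma subunits of voltage-gated calcium channels. 4933406I18Rik is a long intergenic noncoding RNA.

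All mice were female C57BL/6 mice of 6 to 8 weeks that underwent abrasion of the peritoneum and then received syngeneic p53-/-, myc, Hras ovarian cancer cells in the peritoneal cavity. The control group was given control IgG, and the treated group the Activin A neutralizing antibody, daily for 10 days by the labels. Tumours at the abraded peritoneal wall were pooled over the mice of each group, 7 for control IgG and 8 for the antibody by the labels, digested, freed of red and dead cells and sequenced as 1 library per group with no sort for a cell type. For its single-cell experiment the study's own report gives other numbers of mice, another length of treatment and another chemistry, and it gives the labels' numbers of mice for a separate experiment with these 2 groups, so the experiment these libraries come from was not settled. The model is a transplanted line in young mice whose wounded peritoneum draws in fibroblasts. Since each group is 1 library, no test between groups was possible, and the antibody cannot be told apart from any other difference between the 2 libraries.

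Activin A is a ligand of the transforming growth factor beta family that is secreted by fibroblasts, among other cells, and signals through activin receptors to SMAD transcription factors. Macrophages carry these receptors, and signals of this family are part of what gives microglia their identity in the brain. Tumour macrophages arise in part from blood monocytes and pass through intermediate states, so monocyte-like cells and macrophages with different marker genes were kept apart.

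Over all barcodes the libraries held 98174850 unique molecular identifiers (UMIs, each a counted RNA molecule) with control IgG and 74117462 with the antibody. The 8770 and 6386 cells kept held 80208236 and 57416419 of these. Cells were sorted into classes by the UMIs of marker genes. The C1q macrophages, defined by the complement genes C1qa, C1qb and C1qc, were 1153 cells (13.1% of cells) with control IgG and 301 cells (4.71%) with the antibody, at a median of 7579 and 6074 UMIs per cell. Macrophage genes outside the gate were present in both libraries: Adgre1, which encodes F4/80, stood at 229.9 and 279.9 CPM (the UMIs of the gene over all UMIs of the class, scaled to 1000000), and Csf1r, the receptor that macrophages need for survival, at 449.7 and 364.6 CPM. Plac8 was 2345 and 2554 CPM in monocyte-like cells, the fibroblast gene Pdgfra 262 and 327 CPM in fibroblasts, Krt18 669 and 751 CPM in cancer-like cells and Zbtb46 67.9 and 51.5 CPM in conventional dendritic cells. Intervals below are exact 95% Poisson intervals for a level, exact binomial intervals for a share and conditional binomial intervals for a log2 ratio of antibody over control IgG. They cover counting error only and say nothing of differences between mice, which were pooled.

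Tmem37 lies on the minus strand of chromosome 1 (chr1:120067377-120074074, GRCm38) and Cd81 on the plus strand of chromosome 7 (chr7:143052739-143067934), where its start overlaps the transcript R74862 of the opposite strand. The 250 bases before their RefSeq starts are shown because only these 2 of the 4 members had a RefSeq promoter window. The Tmem37 window (chr1:120073781-120074030, minus strand, GRCm38.p6) holds a GAGGAA and a TGAGTCA, in capitals. They lie at positions -176 to -171 and -103 to -97 from the RefSeq start. The GENCODE start of Tmem37, at 120074074, lies further upstream, so this window is within the gene as GENCODE annotates it. The Cd81 window (chr7:143052500-143052749, plus strand) holds none of the motifs searched, and its last bases lie past the GENCODE start at 143052739.
Tmem37: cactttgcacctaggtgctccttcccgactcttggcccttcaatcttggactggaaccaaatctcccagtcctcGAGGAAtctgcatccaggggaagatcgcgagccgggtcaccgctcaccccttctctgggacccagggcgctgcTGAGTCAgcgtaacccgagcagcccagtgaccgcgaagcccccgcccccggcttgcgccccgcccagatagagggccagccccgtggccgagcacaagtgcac
Cd81: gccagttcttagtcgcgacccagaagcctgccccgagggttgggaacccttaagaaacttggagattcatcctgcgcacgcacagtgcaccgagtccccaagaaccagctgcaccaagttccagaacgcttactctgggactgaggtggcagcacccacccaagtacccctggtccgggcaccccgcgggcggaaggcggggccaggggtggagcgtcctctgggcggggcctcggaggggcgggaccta
GAGGAA is the core bound by PU.1, the transcription factor of the myeloid lineage, and TGANTCA is the site of AP-1. The other motifs searched on both strands were the SMAD palindrome GTCTAGAC, the SMAD element CAGACA, the SMAD motif GGCGCC and the E-box CACGTG, and the 2 matches do not overlap each other. Of 32851 RefSeq promoter windows of this length, 23.3% hold GAGGAA, 6.75% TGANTCA, 17.1% CAGACA, 9.59% GGCGCC, 6.02% CACGTG and 0.167% GTCTAGAC. A match describes these letters and is not a binding site. Tmem119 is on the minus strand of chromosome 5 (chr5:113793729-113800516). 4933406I18Rik is on the minus strand of chromosome 7 (chr7:114315479-114415161), with 119 bases between its start and that of the divergent gene Pde3b (chr7:114415281-114539251), which encodes a phosphodiesterase that breaks down cyclic AMP and cyclic GMP.

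Across cell classes the 4 genes had different patterns, and only Tmem37 was highest in C1q macrophages in both libraries. The comparison below is over the 9 classes with at least 50 cells in each library, and levels are compared between classes for 1 gene and never between genes. Tmem37 stood at 73.0 CPM (67.6 to 78.7) in C1q macrophages with control IgG, at 25.9 CPM in monocyte-like cells and at 21.6 CPM in cancer-like cells. With the antibody the order was kept, at 33.9 CPM (26.2 to 43.1), 11.2 CPM and 9.72 CPM. The intervals of monocyte-like and cancer-like cells overlapped in both libraries. Fibroblasts had 4.85 and 1.12 CPM of Tmem37. No UMI was seen in mature dendritic cells, where 3 counts equal 3.72 and 5.45 CPM and the exact intervals reach 4.58 and 6.70 CPM.

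Tmem119 was a gene of both macrophages and fibroblasts. With control IgG it stood at 65.3 CPM (60.2 to 70.7) in C1q macrophages and at 54.5 CPM (46.9 to 63.1) in fibroblasts, whose intervals overlapped. With the antibody it stood at 26.2 CPM (19.5 to 34.4) in C1q macrophages and at 59.2 CPM (50.4 to 69.2) in fibroblasts, so that fibroblasts came first. Monocyte-like cells followed in both libraries, at 33.2 and 10.1 CPM. It was near absent from T and NK cells, at 0.428 and 0.338 CPM. No UMI was seen in conventional dendritic cells, where 3 counts equal 3.45 and 5.15 CPM and the exact intervals reach 4.24 and 6.33 CPM.

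Cd81 was highest in fibroblasts (638 and 497 CPM), followed by cancer-like cells (312 and 238 CPM) and C1q macrophages (211 and 107 CPM), and no intervals of these neighbours overlapped in either library. B cells came next at 113 and 53.6 CPM, and T and NK cells had 7.44 and 7.09 CPM. Mature dendritic, monocyte-like and type 1 with plasmacytoid dendritic cells lay close together at 28.8 to 49.6 CPM with control IgG and 29.0 to 30.9 CPM with the antibody.

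4933406I18Rik stood higher in lymphocytes than in macrophages. It was highest in B cells (160 and 104 CPM) and in T and NK cells (139 and 93.9 CPM), whose intervals overlapped in both libraries. C1q macrophages had 61.7 CPM (56.7 to 66.9) with control IgG and 21.6 CPM (15.5 to 29.2) with the antibody. Cancer-like cells, at 44.5 and 31.2 CPM, were below the C1q macrophages in the control library and above them in the antibody library. The label of a macrophage gene thus held for Tmem37, was shared with fibroblasts for Tmem119, and went against the levels of Cd81 and 4933406I18Rik.

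**Figure D1:**
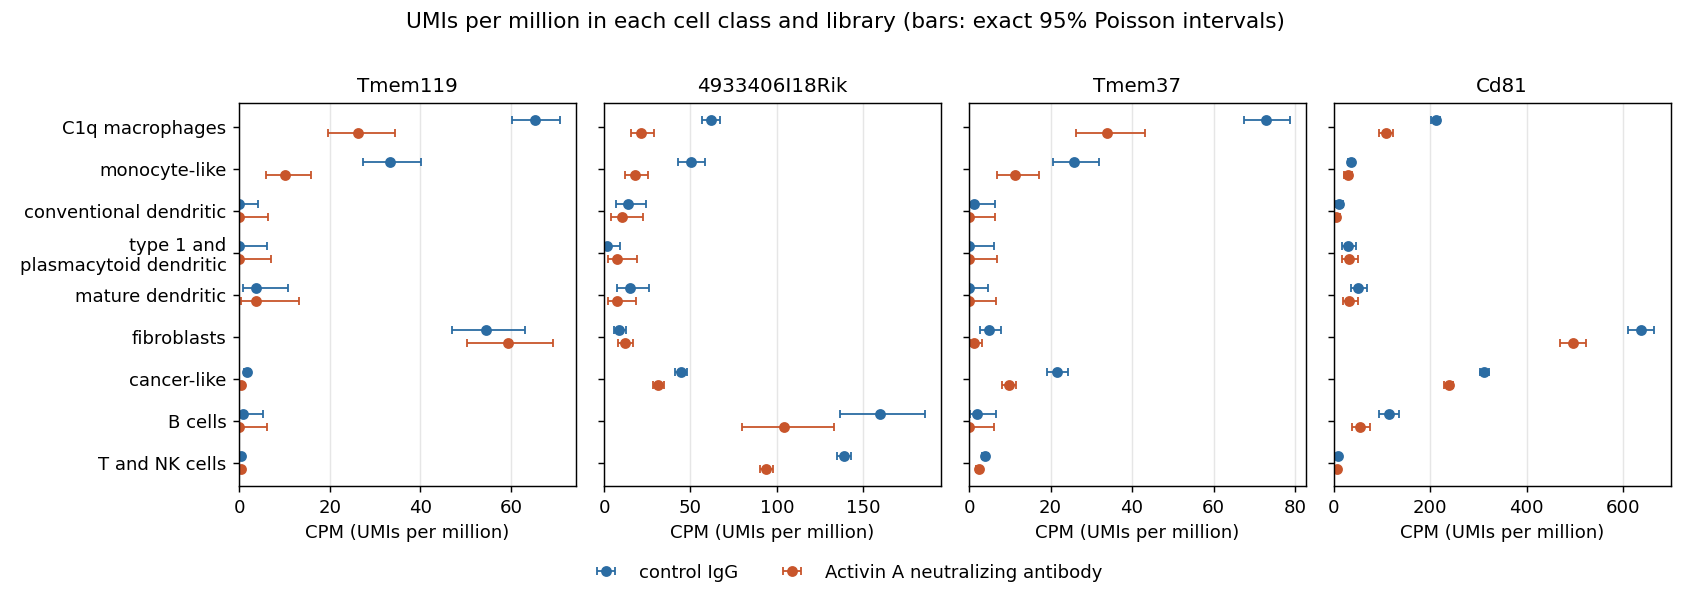
Each panel shows 1 gene, with the level in CPM (horizontal axis, a linear scale of its own) in the 9 cell classes of at least 50 cells, for the control IgG library (blue) and the antibody library (orange); points are summed levels and bars exact 95% Poisson intervals. Tmem37 stands highest in C1q macrophages, Cd81 in fibroblasts and 4933406I18Rik in B and T and NK cells, and Tmem119 is shared by macrophages and fibroblasts, where the blue and orange bars overlap.

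In C1q macrophages the values that chose the genes were as follows. Tmem119 had 608 UMIs with control IgG and 51 with the antibody, a log2 ratio of -1.32 (-1.76 to -0.91). 4933406I18Rik had 574 and 42 UMIs, a log2 ratio of -1.52 (-2.0 to -1.06), the lowest of the 4. Tmem37 had 679 and 66 UMIs, at -1.11 (-1.49 to -0.74), and Cd81 had 1965 and 209 UMIs, at -0.98 (-1.19 to -0.77). The most UMIs in any 1 cell of the antibody library were 6 for Tmem119, 3 for 4933406I18Rik, 4 for Tmem37 and 20 for Cd81.

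Of the 7809 genes with at least 10 CPM in C1q macrophages, 44 (0.563%) were lower by at least 2-fold in the antibody library, and 3 of the 4 members were among them, with Cd81 just short of the limit. This count describes how the genes were chosen. The median log2 ratio of all 7809 genes was 0.02. Other sets of genes moved with the library in the same cells. The summed level of 6 skeletal muscle genes was 136 CPM with control IgG and 57.0 CPM with the antibody, lower for 6 of 6. That of 4 haemoglobin genes was 0.752 and 374 CPM, and that of 5 peritoneal macrophage genes (Prg4, Alox15, Gata6, Selp and F5) 70.4 and 407 CPM, higher for 5 of 5. The part of these differences in the members' values was not tested, but without the cells that carried the peritoneal genes the log2 ratios were -1.24 for Tmem119, -1.37 for 4933406I18Rik, -1.09 for Tmem37 and -1.02 for Cd81. Of the marker lists of other cell types in the C1q macrophages, the 7 markers of monocyte-like cells, which macrophages also express, summed to 2011 and 1840 CPM, with 6 of 7 lower in the antibody library. The 4 fibroblast markers (Col1a1, Col1a2, Col3a1 and Dcn) summed to 35.8 and 39.5 CPM, with 1 of 4 lower in the antibody library, and the 7 markers of T and NK cells to 23.0 and 19.0 CPM, with 4 of 7 lower.

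**Figure D2:**
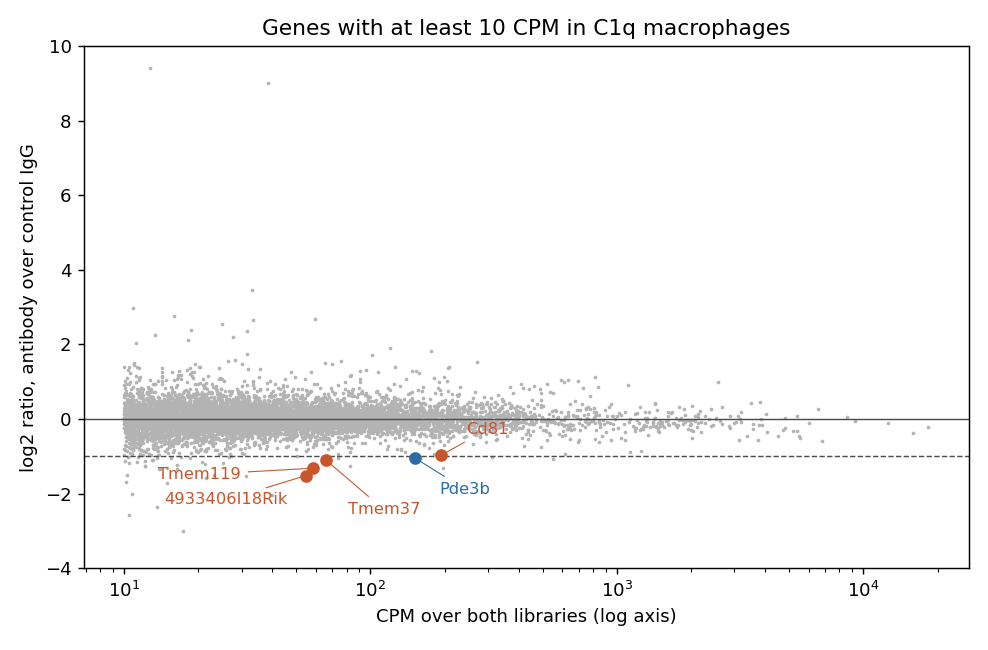
The log2 ratio of antibody over control IgG (vertical axis) is plotted against the level over both libraries (horizontal axis, CPM on a log scale) for the 7809 genes with at least 10 CPM in C1q macrophages. The 4 members (orange) lie near or below the dashed line at a log2 ratio of -1, as does Pde3b (blue), the divergent neighbour of 4933406I18Rik, and the 2 points at the top are haemoglobin genes.

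All 4 genes were at lower levels in Arg1-positive C1q macrophages of the antibody library. Arg1 encodes arginase 1, which breaks down arginine and marks a state of tumour macrophages. These were 863 cells with control IgG and 205 with the antibody. In them Tmem119 was 80.3 and 33.6 CPM, a log2 ratio of -1.26 (-1.73 to -0.82). 4933406I18Rik was 70.9 and 21.6 CPM, at -1.71 (-2.31 to -1.17). Tmem37 was 80.8 and 35.8 CPM, at -1.17 (-1.63 to -0.75), and Cd81 was 245 and 122 CPM, at -1.0 (-1.24 to -0.77). Of 7696 genes measured in these cells, 84 (1.09%) were lower by at least 2-fold, with 4 of the 4 members among them. These cells are part of those that chose the genes.

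The Arg1-negative C1q macrophages, 290 and 96 cells, differed less between the libraries. Tmem119 was low in both, at 8.75 CPM (17 UMIs) and 9.90 CPM (6 UMIs), a log2 ratio of 0.18 (-1.45 to 1.59). 4933406I18Rik was 26.8 and 21.4 CPM, at -0.32 (-1.32 to 0.58), and Tmem37 was 43.2 and 29.7 CPM, at -0.54 (-1.36 to 0.20). Cd81 was 81.8 and 74.2 CPM, at -0.14 (-0.65 to 0.34). The interval of each of the 4 ratios included 0. That of Cd81 was the only one that did not overlap the interval in Arg1-positive cells. Of its 45 UMIs in the 96 cells of the antibody library, 17 lay in 1 cell, so this separation rests in part on 1 cell. In these fewer cells 282 of 7902 genes (3.57%) were lower by at least 2-fold and 0 of the 3 members with at least 10 CPM were. The pooled values combine parts with different ratios, from few UMIs. In the 45 and 22 Arg1-negative cells with the chemokine genes Pf4 or Ccl8, Cd81 was at -1.70 (-2.88 to -0.70) and Tmem37 at 0.11 (-1.20 to 1.28). In the 245 and 74 cells without them, Cd81 was at 0.55 (-0.05 to 1.14) and Tmem37 at -1.04 (-2.24 to -0.03). For Tmem119 and 4933406I18Rik the intervals of both parts included 0. In the antibody library Cd81 had 9 UMIs in the part with Pf4 or Ccl8. It had 36 in the part without, 17 of them in 1 cell.

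All 4 genes were thus higher in Arg1-positive than in Arg1-negative macrophages of the control library, by intervals that did not overlap, and with the antibody this held for Tmem119 and Cd81 but not for 4933406I18Rik and Tmem37. Arg1-positive cells held 79.1% of the UMIs of C1q macrophages with control IgG and 68.9% with the antibody. Their share of the difference in CPM, which counts both their level and their part of the UMIs, came to 103% for Tmem119, 103% for 4933406I18Rik, 101% for Tmem37 and 106% for Cd81, with small opposite shares from the Arg1-negative cells. Where each subset was given the weight it had in the control library, the log2 ratios were -1.19 for Tmem119, -1.51 for 4933406I18Rik, -1.08 for Tmem37 and -0.91 for Cd81. Without this weighting they were -1.32, -1.52, -1.11 and -0.98, in the same order. Arg1 itself was 4644 and 4421 CPM within the positive cells.

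Over 4 ranges of Arg1 in the cell, Tmem119 in the control library was 6.83 CPM below 2 Arg1 UMIs per 10000, 52.4 CPM from 2 to 10, 54.9 CPM from 10 to 30 and 91.4 CPM at 30 and above. Cd81 was 79.9, 147, 185 and 274 CPM over the same ranges. In the antibody library Tmem119 was 8.31, 11.6, 44.3 and 35.4 CPM, and Cd81 was 74.8, 93.1, 44.3 and 151 CPM. In the highest range, with 596 and 140 cells, the log2 ratios were -1.37 for Tmem119, -1.72 for 4933406I18Rik, -1.07 for Tmem37 and -0.87 for Cd81, and no interval included 0. The middle ranges had 25 and 41 cells with the antibody and wide intervals.

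**Figure D3:**
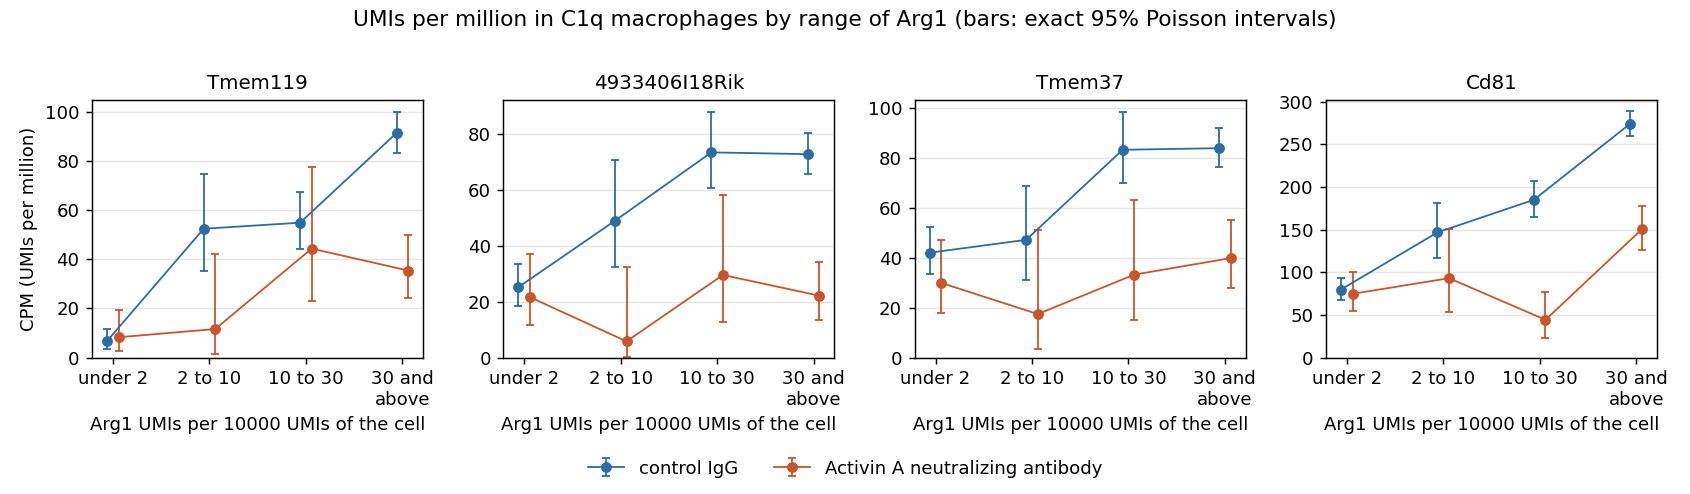
Each panel shows 1 gene in C1q macrophages, with the level in CPM (vertical axis, from 0) over 4 ranges of Arg1 UMIs per 10000 UMIs of the cell (horizontal axis), for control IgG (blue) and the antibody (orange); bars are exact 95% Poisson intervals. The libraries overlap below 2 Arg1 UMIs per 10000 and stand apart at 30 and above for all 4 genes.

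The split by Pf4 or Ccl8 did not place the difference in 1 subset. Cells with and without Pf4 or Ccl8, chemokine genes of a resident-like state, were 284 and 869 with control IgG and 81 and 220 with the antibody. Tmem119 was 98.6 and 36.0 CPM in the cells with these genes and 53.1 and 22.5 CPM in those without, log2 ratios of -1.45 and -1.24. 4933406I18Rik had ratios of -1.75 and -1.42, Tmem37 of -0.92 and -1.21, and Cd81 of -0.96 and -0.99. No interval of these 8 ratios included 0, so the difference was seen in both subsets.

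Spp1, which encodes osteopontin, and Trem2, a lipid receptor, mark lipid-associated tumour macrophages, and cells with either were 806 and 163. In these cells Tmem119 was 81.2 and 30.5 CPM (log2 ratio -1.41, -1.95 to -0.92) and Tmem37 was 83.9 and 30.5 CPM (-1.46, -2.0 to -0.97). In the 347 and 138 cells without them Tmem119 was 16.3 and 20.03 CPM (0.30, -0.65 to 1.18) and Tmem37 was 39.1 and 38.8 CPM (-0.01, -0.65 to 0.59). For these 2 genes the intervals with and without Spp1 or Trem2 did not overlap. 4933406I18Rik differed from them, since it was lower in both, at 67.5 and 27.9 CPM with the markers (-1.28) and 43.5 and 12.5 CPM without (-1.80, -2.90 to -0.86). Cd81 was at -0.97 with the markers and at -0.31 (-0.73 to 0.10) without. Cells with Spp1 or Trem2 were 69.9% of C1q macrophages with control IgG and 54.2% with the antibody, and held 75.6% and 59.0% of their UMIs. Their share of the difference in CPM was 111% for Tmem119, 86.3% for 4933406I18Rik, 116% for Tmem37 and 108% for Cd81. For Tmem119, Tmem37 and Cd81 the intervals without the markers included 0, as they did in Arg1-negative cells. Of the splits by Arg1 and by Spp1 or Trem2, only the second set the intervals apart for Tmem119 and Tmem37. Only the first did so for Cd81, where 17 of the 45 UMIs of Arg1-negative antibody cells lay in 1 cell. The intervals of Cd81 with and without Spp1 or Trem2 overlapped narrowly, at -1.22 to -0.725 and -0.729 to 0.10. Neither split thus placed the difference in 1 subset for all 3 genes. The ratio of 4933406I18Rik was at least as low in cells without Spp1 or Trem2 as in those with them. The share of 86.3% also counts the part of the UMIs that cells with the markers held. With the control library's weights for the 2 subsets the log2 ratios were -1.23, -1.35, -1.17 and -0.88, in the same order.

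Cells with Folr2, Lyve1, Timd4 or Mrc1, genes of resident macrophages, were 740 and 174. Their ratios were -1.33 for Tmem119, -1.26 for 4933406I18Rik, -1.16 for Tmem37 and -1.11 for Cd81, and those of the 413 and 127 cells without these genes were -0.87, -1.99, -0.72 and -0.25, in the same order of genes. The interval of Cd81 in the cells without them was -0.64 to 0.12 and did not overlap that of the cells with them. With the antibody, 17 of the 73 Cd81 UMIs of the cells without them lay in 1 cell. Among cells high in MHC class II genes, 1068 and 234, the ratios ran from -1.39 to -1.05. In the 85 and 67 cells low in these genes Tmem119 had 23 and 3 UMIs and 4933406I18Rik 41 and 6 UMIs, and the intervals of Tmem37 and Cd81 included 0. Dividing cells were 18 and 6, too few to compare.

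**Figure D4:**
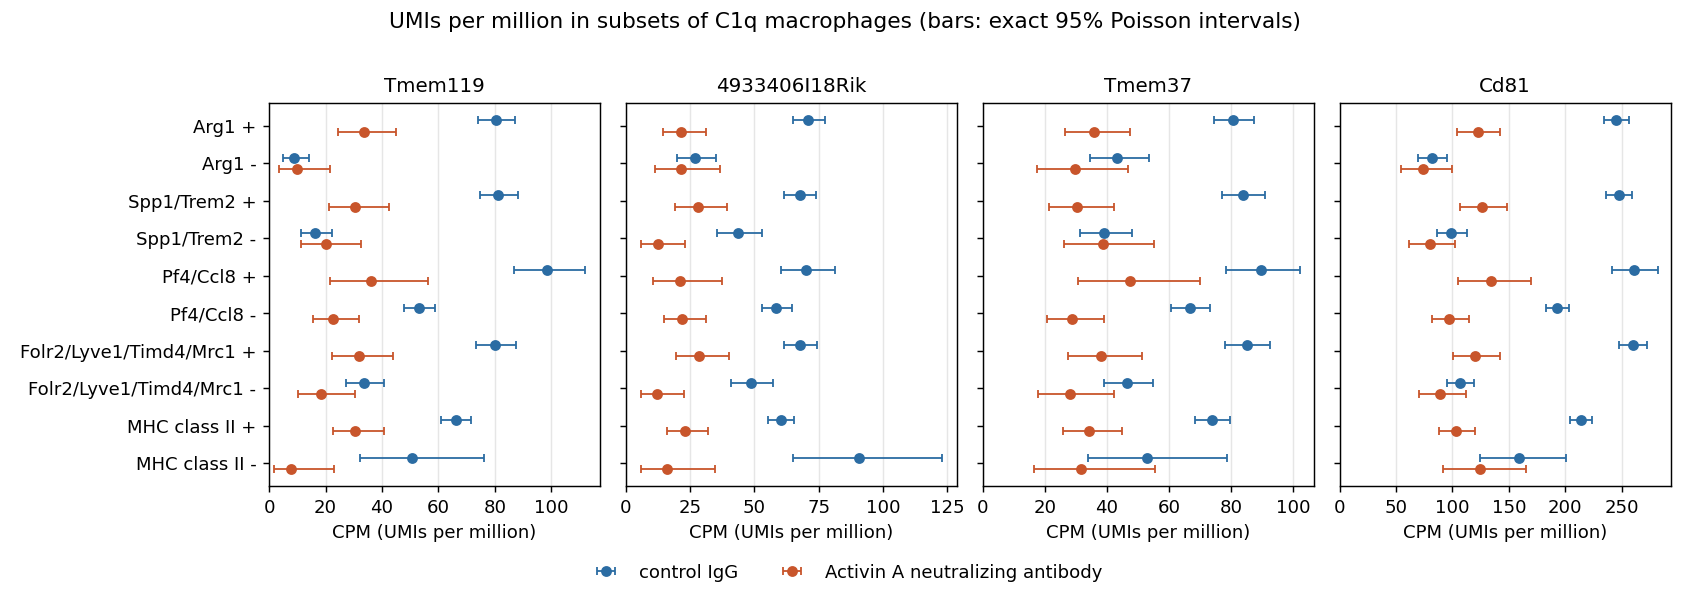
Each panel shows 1 gene in pairs of C1q macrophage subsets with (+) and without (-) the named markers, with the level in CPM (horizontal axis, a linear scale of its own) for control IgG (blue) and the antibody (orange); bars are exact 95% Poisson intervals. The bars of the 2 libraries are apart in Arg1-positive and overlap in Arg1-negative cells for all 4 genes, and are apart in cells both with and without Pf4 or Ccl8.

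Among single cells, 321 of 1153 C1q macrophages (27.8%, 25.3 to 30.5) with control IgG and 153 of 301 (50.8%, 45.0 to 56.6) with the antibody had no UMI of any of the 4 genes. 3 of the genes were found together in 162 cells (14.1%) and 5 cells (1.66%), and all 4 in 35 cells (3.04%) and in 0 of 301 cells (interval up to 1.22%). Cells of the antibody library held fewer UMIs, so each cell was also thinned to 2000 UMIs, which left out 24 and 4 cells. Then 621 of 1129 cells (55.0%) and 218 of 297 cells (73.4%) had none of the 4 genes, 111 (9.83%) and 9 (3.03%) had 2, and no cell of either library had 4.

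**Figure D5:**
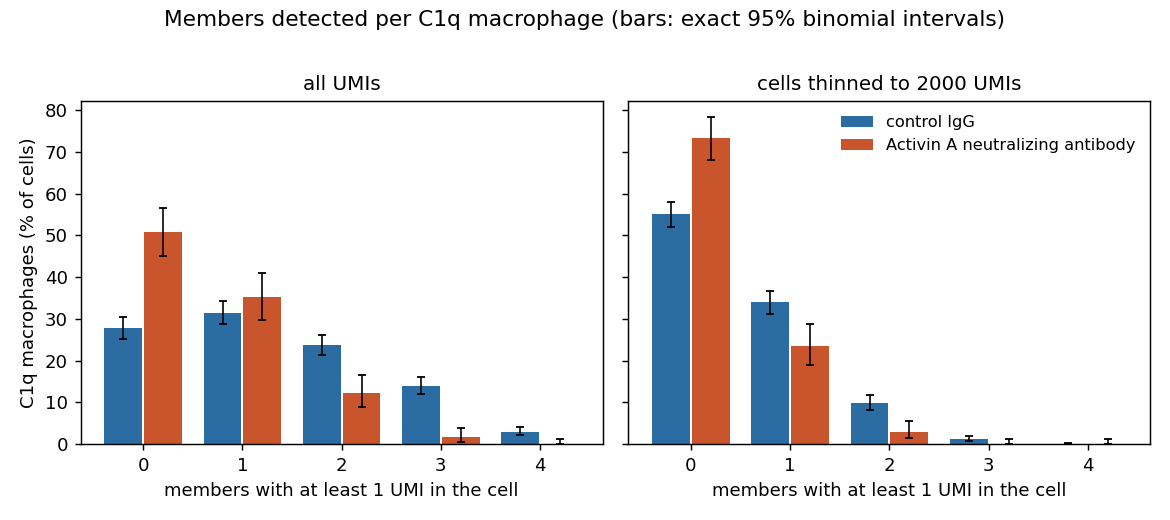
The share of C1q macrophages (vertical axis, % of cells, from 0) is plotted against the number of the 4 genes with at least 1 UMI in the cell (horizontal axis), for control IgG (blue) and the antibody (orange), with all UMIs on the left and cells thinned to 2000 UMIs on the right; bars are exact 95% binomial intervals. In both panels the antibody library has more cells with none of the genes and fewer with 2.

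The share of C1q macrophages with a UMI of Tmem119 was 26.2% and 11.3%, or 10.98% and 4.04% after thinning, against 0.257% and 0.184% (0.132% and 0.119% thinned) of T and NK cells, a class that should lack it, at a median of 4817 and 4192 UMIs. Tmem37 was found in 34.4% and 16.9% of C1q macrophages (11.6% and 5.72% thinned) and in 2.28% and 1.19% of T and NK cells. Cd81 was found in 44.1% and 26.6% (23.6% and 14.8% thinned) and in 3.49% and 2.23% of T and NK cells. 4933406I18Rik was found in 28.3% and 9.97% of C1q macrophages (11.1% and 5.05% thinned). Its share was larger in T and NK cells, at 42.4% and 29.5% (22.4% and 16.1% thinned), and in fibroblasts it was 9.79% and 7.51% (1.04% and 0.948% thinned). Type 1 and plasmacytoid dendritic cells had 4933406I18Rik in 0 of 72 thinned control cells (interval up to 4.99%) and in 1.85% of 54 thinned antibody cells. In barcodes with fewer than 100 UMIs, taken as free RNA, the levels were 9.72 and 9.10 CPM for Tmem119, 32.7 and 30.8 CPM for 4933406I18Rik, 11.9 and 6.28 CPM for Tmem37, and 90.0 and 108 CPM for Cd81. In C1q macrophages of the antibody library 4933406I18Rik, at 21.6 CPM, was below its free RNA level, and Cd81, at 107 CPM, was close to it. In Arg1-negative cells both genes were below it in both libraries. What part of these UMIs came from free RNA was not tested.

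Within C1q macrophages of the control library the genes were found together more often than their separate shares give, before depth was evened out. In the control library Tmem119 and Cd81 were both present in 187 C1q macrophages where independence would give 133, and Tmem119 and Tmem37 in 140 against 104. After thinning the counts were 43 against 29.3 for the first pair and 13 against 14.4 for the second. Over all 6 pairs of genes the ratio of observed to independent counts ran from 1.20 to 1.40 with all UMIs, and from 0.904 to 1.47 after thinning. In the antibody library the pairs were found in 4 to 17 cells, at ratios from 0.984 to 1.25, and in 0 to 4 cells after thinning. These ratios share cells and depth, and in counts this sparse they describe the data only.

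Monocyte-like cells, defined by genes such as Ly6c2, Ccr2 and Chil3 in cells that passed no lineage gate, were 491 and 279 cells. They failed the C1q gate and took no part in the C1q class, but low C1q counts were allowed. C1qa, C1qb and C1qc summed to 62.8 and 40.2 CPM in them, beside 9398 and 6440 CPM in C1q macrophages. Tmem119 was 33.2 CPM (108 UMIs) with control IgG and 10.1 CPM (18 UMIs) with the antibody, a log2 ratio of -1.73 (-2.53 to -1.0). 4933406I18Rik was 50.2 and 17.9 CPM, at -1.49 (-2.08 to -0.94), and Tmem37 was 25.9 and 11.2 CPM, at -1.21 (-1.99 to -0.49). Of 7838 genes measured in these cells 101 (1.29%) were lower by at least 2-fold, and 3 of the 4 members were among them. Cells of this kind may have been among those that chose the genes, so this is no separate support.

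Cd81 in monocyte-like cells rested on a few cells. It was 35.1 and 29.0 CPM, a log2 ratio of -0.27 (-0.78 to 0.21). Of its 52 UMIs in the antibody library, 36 lay in 14 cells with high S100a8 or S100a9, genes of neutrophils and their precursors, of which the control library had 2 with no UMI of Cd81. Without these cells Cd81 was 35.3 and 10.6 CPM, at -1.74 (-2.59 to -0.98), while Tmem119 was at -1.85, 4933406I18Rik at -1.35 and Tmem37 at -0.98. S100a8 itself was 22.2 and 2621 CPM in the whole class.

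In fibroblasts, 194 and 213 cells, Tmem119 did not have the lower level seen in macrophages. It had 180 and 159 UMIs, a log2 ratio of 0.12 (-0.20 to 0.43). Its levels were 64.6 and 78.7 CPM in Acta2 or Tagln myofibroblasts, 32.9 and 31.4 CPM in Pi16 or Car3 fibroblasts and 53.3 and 63.6 CPM in the others, and each of the 3 intervals included 0. Cd81 was lower in each of these subsets, at -0.43, -0.34 and -0.35, and at -0.36 (-0.46 to -0.26) over all fibroblasts, which had a median of 14144 and 8376 UMIs per cell. 4933406I18Rik had 29 and 32 UMIs in fibroblasts. Tmem37 had 16 and 3 UMIs, a log2 ratio of -2.12 (-4.54 to -0.31). The few mesothelial cells, 19 and 16, had Tmem119 at 82.7 and 99.9 CPM and Cd81 at 757 and 715 CPM.

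Beyond macrophages and fibroblasts, the genes were also lower in some classes and not in others. In cancer-like cells, 238 and 225, Tmem37 was 21.6 and 9.72 CPM, a log2 ratio of -1.15 (-1.47 to -0.84), from 290 and 121 UMIs. It was also lower in T and NK cells, at 3.91 and 2.32 CPM (-0.75, -1.23 to -0.29), and in free RNA (-0.93, -1.60 to -0.29). The levels in T and NK cells were below those in free RNA, 11.9 and 6.28 CPM, which can hold RNA of macrophages. Whether carried-over RNA had a part in these values was not tested. In cancer-like cells Cd81 was at -0.39 (-0.46 to -0.32) and 4933406I18Rik at -0.51 (-0.70 to -0.32). Tmem119 was lower there as well, at -2.35 (-4.35 to -0.79), from only 22 and 4 UMIs (1.64 and 0.321 CPM). Cd81 was 113 and 53.6 CPM in B cells, at -1.08 (-1.69 to -0.51), and 7.44 and 7.09 CPM in T and NK cells, at -0.07 (-0.36 to 0.22). Of the dendritic classes, Cd81 had 40 and 17 UMIs in mature cells, 17 and 16 in type 1 with plasmacytoid cells and 9 and 2 in conventional cells, with intervals that included 0. 4933406I18Rik had between 1 and 12 UMIs in each dendritic class and library.

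4933406I18Rik had most of its UMIs in T and NK cells, 4871 in 5438 cells with control IgG and 2225 in 4352 cells with the antibody, levels of 139 and 93.9 CPM. The log2 ratio was -0.56 (-0.64 to -0.49), smaller than in C1q macrophages by intervals that did not overlap. Of 8272 genes measured in T and NK cells, 87 (1.05%) had a log2 ratio at or below -0.5, with 4933406I18Rik, the 1 member of at least 10 CPM there, among them. B cells had 172 and 62 UMIs, at -0.62 (-1.06 to -0.19).

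Its neighbour Pde3b was the gene with the most similar pattern across the 18 class and library profiles of at least 50 cells, with a Pearson correlation of log2(CPM + 10) of 0.936. The profiles share libraries, and this value describes them only. In C1q macrophages Pde3b was 166 and 80.6 CPM, a log2 ratio of -1.04 (-1.29 to -0.80), and it was lower in Arg1-positive (-0.91) and Arg1-negative cells (-1.20, -1.86 to -0.59). In monocyte-like cells it was 139 and 97.2 CPM (-0.52), and in B cells 631 and 419 CPM (-0.59). In T and NK cells, where 4933406I18Rik was lower, Pde3b was 399.5 and 421 CPM (0.08, 0.04 to 0.11). The 2 neighbours were thus both lower in C1q macrophages and B cells, while in T and NK cells 4933406I18Rik alone was lower.

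None of the genes most like the other members by the same measure differed by 2-fold between the libraries in C1q macrophages. For Tmem119 they were Cfb, a complement factor, at 0.967, followed by Plod1, Itga9, Ecm1 and Tnfsf12. The log2 ratio of Cfb in C1q macrophages was 0.07, while the others were lower, at -0.46, -0.51, -0.39 and -0.34 in this order. For Tmem37 they were Rnf128 at 0.909, Appl2, Mertk, which encodes a receptor for the uptake of dead cells, at 0.901, Siglec1 and Fam20c, with ratios from -0.52 to 0.76. For Cd81 they were Cd151, another tetraspanin, at 0.90, Mgmt, Ckap4, Sdc1 and Vkorc1, with ratios from -0.27 to 0.48. For 4933406I18Rik, Tspan32 followed Pde3b at 0.854, then Rhot1, Nasp and Rnf2. Among the members themselves the correlations ran from -0.12, for Tmem119 with 4933406I18Rik, to 0.61, for Tmem119 with Cd81.

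Lists of related genes were set beside the members in C1q macrophages. Tmem119 belongs to the microglia signature genes, of which 18 symbols were listed and 17 were among the genes counted. Of these, 11 had at least 10 CPM, and 0 were lower or higher by 2-fold. Their median log2 ratio was -0.30 beside 0.02 for all genes. The lowest were Olfml3, a secreted matrix protein, at 16.4 and 8.73 CPM (-0.91, -1.73 to -0.19), and Fcrls, an Fc receptor-like gene, at 32.8 and 17.5 CPM (-0.91, -1.46 to -0.39). The highest were Tgfbr1, a receptor of transforming growth factor beta, at 52.8 and 59.1 CPM (0.16), and the chemokine receptor gene Cx3cr1 at 45.6 and 57.0 CPM (0.32). Of 15 resident macrophage genes 8 were measured, with a median of 0.14. Folr2, a folate receptor, was 186 and 109 CPM (-0.77) and Cbr2 was 50.4 and 41.1 CPM (-0.29), while the scavenger receptor gene Marco was 68.4 and 156 CPM (1.18) and Icam2, an adhesion molecule of peritoneal macrophages, was 15.3 and 36.5 CPM (1.26).

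Cd81 belongs to the tetraspanins. Of 23 other tetraspanins 14 were measured, with a median log2 ratio of 0.00, and 0 differed by 2-fold in either direction. Tspan4 was 50.1 and 38.5 CPM (-0.38) and Tspan3 was 55.8 and 50.3 CPM (-0.15), while Tspan5 was 48.7 and 71.4 CPM (0.55) and Cd9, which often pairs with Cd81, was 107 and 161 CPM (0.59, 0.40 to 0.78). Of 6 tetraspanin partners 4 were measured. Ptgfrn, a direct partner of CD81 and CD9, was 29.1 and 16.9 CPM (-0.78, -1.35 to -0.26), Itga4 was at -0.05, Igsf8 at 0.00 and Itgb1 at 0.25. Of 26 subunits of voltage-gated calcium channels, to which Tmem37 is related by annotation, only Cacna1d was measured, at 400.1 and 349 CPM (-0.20).

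Genes that respond to SMAD signalling, the pathway below activin receptors, were mixed. Of 15 such genes 14 were measured, with a median of 0.07, 1 lower by 2-fold and 0 higher. Pmepa1, which is induced by SMAD signalling and dampens it, was 91.8 and 38.0 CPM (-1.27, -1.63 to -0.93). Id1 and Id3, targets of the bone morphogenetic protein branch, were 28.4 and 47.2 CPM (0.74) and 64.1 and 121 CPM (0.92). Of 14 pan-macrophage genes all were measured, with a median of -0.20 and 0 differing by 2-fold. Mertk (-0.52) and Lyz2 (-0.51) were the lowest, and Adgre1 (0.28) was among the highest.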

How the data were processed

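The deposited matrices are raw UMI counts for all barcodes, neither normalized nor restricted to cells by the authors. The submitters' processing notes name Cell Ranger 7.0.1 and mm10, while the file headers name Cell Ranger version 4. A barcode was kept as a cell if it had 1000 to 8500 genes, between 1000 and 100000 UMIs, and a mitochondrial share of no more than 10%. The libraries shared 19 cell barcodes (0.217% and 0.298% of their cells). Each cell was assigned by its marker UMIs, both as UMIs and per 10000 UMIs (C1q macrophages at 5, Arg1 and the other splits at 2, MHC class II at 50). No doublet caller was run. Cells past the gates of more than 1 lineage, 394 and 284 cells (4.49% and 4.45%), were left out, of which 140 and 34 passed the C1q gate. Raw counts were summed per class and library and divided by the class total (CPM), and no gene was given a test, since each group is 1 library of pooled mice. Levels at 0 were limited at 3 counts. Per member the 5 genes with the highest correlation were named, and per gene list the 2 lowest and 2 highest log2 ratios, some of which are not reported here. The members, gates and gene lists were chosen with earlier results of these data known. The step that calls genes was tested on simulated data. Python 3.11.15, numpy 2.4.6, scipy 1.17.1 and pandas 2.3.3 were used. Positions come from GENCODE M21 (GRCm38), and promoter windows from RefSeq (GRCm38.p6), which matched 2 of the 4 members.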

Additional observations from a re-analysis of the deposited data

Results flagged for a closer look

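6 values with the opposite sign to the lower level in C1q macrophages were flagged, and they are not all such values. None of these differences between classes was tested, and the interval of each flagged value included 0. In fibroblasts the log2 ratio of antibody over control IgG was 0.12 (-0.20 to 0.43) for Tmem119 and 0.44 (-0.33 to 1.22) for 4933406I18Rik, and in fibroblasts without Acta2, Tagln, Pi16 or Car3 it was 0.25 (-0.23 to 0.74) for Tmem119. For Tmem119 it was 0.18 (-1.45 to 1.59) in Arg1-negative C1q macrophages, from 17 and 6 UMIs, and 0.30 (-0.65 to 1.18) in those without Spp1 or Trem2, from 37 and 16 UMIs. Cd81 was at 0.0698 (-1.01 to 1.14) in type 1 and plasmacytoid dendritic cells, from 17 and 16 UMIs. Among the values not flagged, Tmem119 was at 0.29 (-0.25 to 0.80) in Acta2 or Tagln myofibroblasts. Cd81 in free RNA was at 0.27 (0.09 to 0.44), an interval that did not include 0. In Pi16 or Car3 fibroblasts 4933406I18Rik had 0 UMIs with control IgG and 9 with the antibody.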

How the results depend on the processing

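Under 12 alternatives the log2 ratio in C1q macrophages ran from -1.36 to -1.12 for Tmem119, from -1.64 to -1.37 for 4933406I18Rik and from -1.14 to -1.02 for Tmem37, each inside the counting interval of the reported value. That of Cd81 ran from -1.02 to -0.57. It moved to -0.70 when cells past the gates of more than 1 lineage were kept and to -0.57 when cells were thinned to 2000 UMIs before they were gated, and the cause was not tested. No ratio changed sign. The 44 genes lower by at least 2-fold became 9 among genes with at least 50 CPM and 79 with a stricter C1q gate, which left 947 and 194 cells. In monocyte-like cells Cd81 moved from -0.27 to -1.74 without the S100a8 or S100a9 cells. That setting, ratios with the mix of 4 Arg1 ranges held, the removal of cells with peritoneal macrophage genes and of muscle and haemoglobin genes from the total were chosen after seeing the data. No paired analysis was possible because both groups consist of a single pool of mice, and no replicate could be left out. Depth limits the Arg1-negative and dendritic classes, where some values rest on under 20 UMIs.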
